A study of Mus musculus with 4 samples.

Results

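The Cyp2a family comprises the 4 mouse genes Cyp2a4, Cyp2a5, Cyp2a12 and Cyp2a22, taken here as every non-control probe that carries 1 of these gene names. They are 4 of the 37021 genes and 4 of the 56495 probes measured, since each gene has a single probe. The signals come from 4 one-colour Agilent microarrays of liver RNA from C57BL/6 wild-type mice. Female mice received aristolochic acid I (AAI), a nephrotoxin of Aristolochia plants, at 5 mg/kg/day or corn oil, the vehicle. Male mice received AAI at 2 mg/kg/day or corn oil. All mice were 6 weeks old, as the labels give it, and were injected intraperitoneally on 5 days a week for 3 weeks. RNA of 5 mice was pooled for each array, so each group is 1 array with no replicate error, and no test was made. As AAI-treated females and males differed in dose as well as sex, these effects cannot be told apart between them, and their values are given side by side.

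Cyp2a enzymes are cytochrome P450s of the endoplasmic reticulum, which use haem and electrons from P450 reductase to add oxygen to steroids, drugs and other foreign compounds. Cyp2a5, the mouse counterpart of the human enzyme that clears nicotine, hydroxylates coumarin and oxidizes bilirubin, and is known as a hepatic P450 that rises under several kinds of liver stress. Cyp2a4 hydroxylates testosterone and differs little from Cyp2a5 in sequence, whereas Cyp2a12 hydroxylates steroids and bile acids. In the array data, Cyp2a22, Cyp2a4 and Cyp2a5 were higher in AAI-treated than in corn oil-treated mice of both sexes, by 1.27-fold to 1.99-fold, whereas Cyp2a12 was at 1.04-fold in females and 1.33-fold lower in males.

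The sequences that were read by the array decide which transcripts the 4 signals stand for, and the start of each probe is therefore shown, all in lower case and 5′ to 3′. For the probes near the 3′ end of their transcript only the first 30 bases are printed, and the Cyp2a22 probe is given over its 60 bases.
Cyp2a4: actatgagtttcttgtcccgttgatcctgg
Cyp2a5: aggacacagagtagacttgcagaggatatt
Cyp2a12: gaccacgtgcatggaagaaatagaaaacac
Cyp2a22: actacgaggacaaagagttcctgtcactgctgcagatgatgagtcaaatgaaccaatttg

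By the array's own annotation on mouse genome build mm9, all 4 probes lie on chromosome 7. The Cyp2a4 probe (NM_009997) spans chr7:27099880-27099939 on the plus strand, and the Cyp2a5 probe (NM_007812) spans chr7:27628169-27628228 on the plus strand. The Cyp2a22 probe (NM_001101467) spans chr7:27722746-27722805 on the minus strand, and the Cyp2a12 probe (NM_133657) spans chr7:27821770-27821829 on the plus strand. Which exon or untranslated region each probe lies in was not analysed here. The annotation lists both NM_009997 and NM_007812 for the Cyp2a4 probe, so the signal called Cyp2a4 cannot be told apart from Cyp2a5 transcripts, whereas the Cyp2a5 probe is listed for NM_007812 only. The nearest other probe on the array differed from each member's probe by 22 to 24 edits. Those nearest probes belong to genes outside the P450s. The probes were not compared with the transcripts of the other members, so whether a probe also reads these was not tested.

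The upstream sequences are shown because the members fall into 2 pairs by them. The 250 bases before each RefSeq start on assembly GRCm38.p6 are printed on the strand of the gene, with capitals at the positions that differ where Cyp2a4 is aligned with Cyp2a5, and Cyp2a12 with Cyp2a22. Bases that run past the end of the partner sequence are in lower case.
Cyp2a4 (chr7:26306942-26307191, plus strand): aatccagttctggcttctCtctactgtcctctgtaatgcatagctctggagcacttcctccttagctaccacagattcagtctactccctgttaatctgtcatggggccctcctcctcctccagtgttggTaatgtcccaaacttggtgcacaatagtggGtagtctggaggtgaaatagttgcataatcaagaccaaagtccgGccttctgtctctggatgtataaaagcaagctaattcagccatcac
Cyp2a5 (chr7:26835089-26835338, plus strand): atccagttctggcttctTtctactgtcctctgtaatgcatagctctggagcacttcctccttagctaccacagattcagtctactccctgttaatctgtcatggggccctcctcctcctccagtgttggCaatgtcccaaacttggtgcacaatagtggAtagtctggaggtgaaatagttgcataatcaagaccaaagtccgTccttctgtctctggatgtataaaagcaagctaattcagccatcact
Cyp2a12 (chr7:27028840-27029089, plus strand): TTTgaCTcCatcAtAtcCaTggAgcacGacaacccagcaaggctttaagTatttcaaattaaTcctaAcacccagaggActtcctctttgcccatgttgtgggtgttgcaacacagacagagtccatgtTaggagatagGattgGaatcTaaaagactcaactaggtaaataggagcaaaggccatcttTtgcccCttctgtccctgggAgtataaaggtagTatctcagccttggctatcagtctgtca
Cyp2a22 (chr7:26939387-26939636, minus strand): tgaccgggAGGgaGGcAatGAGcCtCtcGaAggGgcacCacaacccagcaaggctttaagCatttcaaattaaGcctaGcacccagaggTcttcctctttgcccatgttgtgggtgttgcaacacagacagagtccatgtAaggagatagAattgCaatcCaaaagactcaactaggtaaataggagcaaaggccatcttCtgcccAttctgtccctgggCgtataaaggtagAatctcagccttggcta

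The Cyp2a4 and Cyp2a5 sequences were 98.4% identical, with 4 substitutions over 249 aligned positions. The Cyp2a12 and Cyp2a22 sequences were 88.8% identical over 242 positions, whereas identity across these pairs was 52.3% to 54.7%. A search of both strands found TATAAA, the TATA box, in all 4 members, 28 to 39 bases before the start, and in 12.4% of the 32851 promoters of the same length. TTGCNNAA, a core that C/EBP factors bind, was found in Cyp2a4 and Cyp2a5 as the same 8 bases, and in 9.56% of all promoters. CCAAT, the NF-Y box, was found in Cyp2a12 and in 33.8% of all promoters. The letters TGACNNNGC (Nrf2, 10.2% of all promoters), GCGTG (AhR, 28.2%), TTCNNNGAA (STAT5, 7.02%), TTACGTAA (DBP, TEF and HLF, 0.113%) and AGGTCA (CAR, PXR and HNF4A, 14%) were in none of the 4 windows, and more distant sequence was not searched. Only exact matches to these letters were sought, so variant sites of the same factors may be present in the windows.

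All 4 members were well above background on every array, and none of their spots was marked as an outlier. The hepatocyte identity of the samples was apparent from 7 marker genes measured, which were above background on all 4 arrays with summed normalized signals of 1561890 to 1701470. Markers of other tissues also differed between the arrays. The summed signal of 6 skeletal muscle markers was 688 with corn oil and 27661 with AAI in females, and 3150 and 200469 in males. In males, the sum of 5 adrenal cortex markers was 3049 with corn oil and 46423 with AAI. That of 5 adrenal medulla markers was 3720 and 17824, and that of 5 fat markers was 5756 and 51265. Of these, 5 adrenal cortex, 3 adrenal medulla and 4 fat markers were 2-fold or more higher in males. The brightest probe of the fat marker Plin1 had a log2 ratio of -0.72 in males, and a further probe 2.15. Summed markers of blood and immune cells were lower with AAI. The sums over 3 red cell markers were 17825 and 11249 in females, and 19001 and 3859 in males. Those over 4 macrophage markers were 31089 and 22822, and 25638 and 20558. Not every macrophage marker was lower, as Marco had log2 ratios of 0.05 in females and 0.09 in males. For lung and nasal epithelium, where Cyp2a5 is also used, the sums over 3 markers were 394 to 598. The part of these other tissues and cells in the Cyp2a values was not tested, and in RNA of whole tissue a smaller share of hepatocytes cannot be told apart from less RNA per hepatocyte.

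With no replicates, only measures of technical error could be set beside the values. They do not measure variation between mice or pools. The scanner software gave the spots of all members the same error of 10%, whatever their signal. This uniform value corresponds to 0.20 on the log2 scale for a ratio of 2 arrays, and does not tell the spots apart. The median SD of log2 ratios between probes of 1 gene was 0.25 in females over 9128 genes, 0.24 in males over 8618 genes and 0.23 between the corn oil groups over 8893 genes. All 4 members have 1 probe, so they have no such SD of their own.

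Cyp2a22, for which no function is stated here, had the widest range of the members. After quantile normalization, its log2 signal in females was 12.94 with corn oil and 13.79 with AAI, and in males it was 12.21 and 13.20. Both AAI-treated groups were above both corn oil-treated groups, and each neighbour in the order of the 4 levels differed by more than the scanner error. The log2 ratio of AAI to corn oil was 0.85 in females (1.81-fold) and 0.99 in males (1.99-fold), just under 2-fold. Of the 29714 genes above background on both female arrays, 2.04% had a ratio at least as high, and 3.01% of 28433 genes did in males.

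Cyp2a4, the testosterone hydroxylase, had log2 signals in females of 16.62 with corn oil and 17.08 with AAI, and in males of 16.46 and 17.37. The corn oil-treated groups were the lowest 2 and differed by less than the scanner error, and both AAI-treated groups were above them. The log2 ratio of AAI to corn oil was 0.46 in females (1.38-fold) and 0.91 in males (1.88-fold). At least as high a ratio was found for 13.0% of genes in females and 3.64% in males.

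Cyp2a5 is the coumarin hydroxylase. In females its log2 signal was 17.09 with corn oil and 17.43 with AAI, and in males it was 17.18 and 17.83. The corn oil-treated groups again differed by less than the scanner error and were below both AAI-treated groups. In background-subtracted signal without trend correction, the female ratio of AAI to corn oil was 0.27, and that of females to males given corn oil was -0.22. The corn oil groups then differed by more than the scanner error, and AAI-treated females were only slightly above corn oil-treated males. The log2 ratio was 0.35 in females (1.27-fold) and 0.65 in males (1.57-fold), and 20.8% and 7.27% of genes had a ratio at least as high. The female AAI array was the only one without a correction of trends across the slide in its processed signal. With the trend divided out on all 4 arrays, the female ratios were 0.32 for Cyp2a4, 0.21 for Cyp2a5, 0.11 for Cyp2a12 and 0.79 for Cyp2a22, and Cyp2a5 was then within the SD between probes.

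Cyp2a12, the steroid and bile acid hydroxylase, differed from the others. Its log2 signal in females was 15.94 with corn oil and 15.99 with AAI, and in males it was 16.06 and 15.64. AAI-treated males were the lowest group, and the other groups differed from their neighbours in order by less than the scanner error. The log2 ratio was 0.05 in females and -0.41 in males (1.33-fold lower), and in males it was -0.11, within the SD between probes, when arrays were scaled to their 75th percentile.

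**Figure D1:**
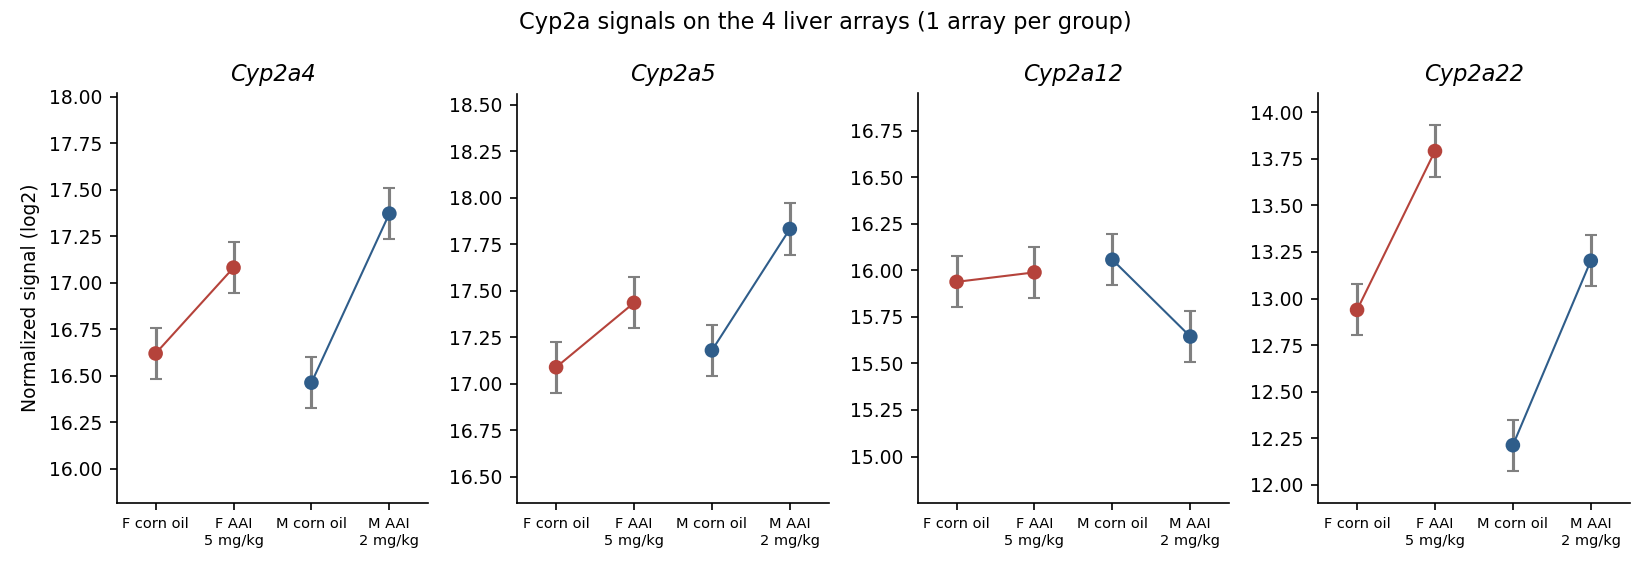
Normalized log2 signals (y axis, each panel spanning the same range of log2 units) of the 4 Cyp2a genes with corn oil and with AAI, in females (red) and males (blue), 1 array of 5 pooled mice per point, with bars of the 10% scanner error. The lines run upward from corn oil to AAI in both sexes for Cyp2a4, Cyp2a5 and Cyp2a22, and downward for Cyp2a12 in males, from 16.06 to 15.64.

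Across the family, no member reached 2-fold in either sex, a threshold that 1.37% of 31682 genes passed upward and 3.09% downward in females, and 3.51% and 4.59% of 30539 genes in males. By more than the SD between probes, 3 of 4 members were higher in females, against 29.3% of all genes, and none was lower, against 24.8%. In males 3 of 4 members were higher by this measure, against 28.4%, and 1, Cyp2a12, was lower, against 27.1%. The family median was 0.40 in females and 0.78 in males, beside medians of 0.04 and 0.00 over all genes. Over the ways of processing it was 0.27 to 0.42 in females and 0.68 to 0.97 in males. The female count of 3 holds Cyp2a5, which was within the SD between probes with the trend divided out on all arrays. Cyp2a4 and Cyp2a5 are also not separate in these counts, as the Cyp2a4 probe is listed for the transcripts of both genes. Under 75th percentile scaling 2 members passed 2-fold in males, Cyp2a4 with 1.16 and Cyp2a22 with 1.04. The direction of all 8 AAI ratios was the same under the 6 other ways of processing that can change the ratio of a gene with 1 probe above background on every array.

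**Figure D2:**
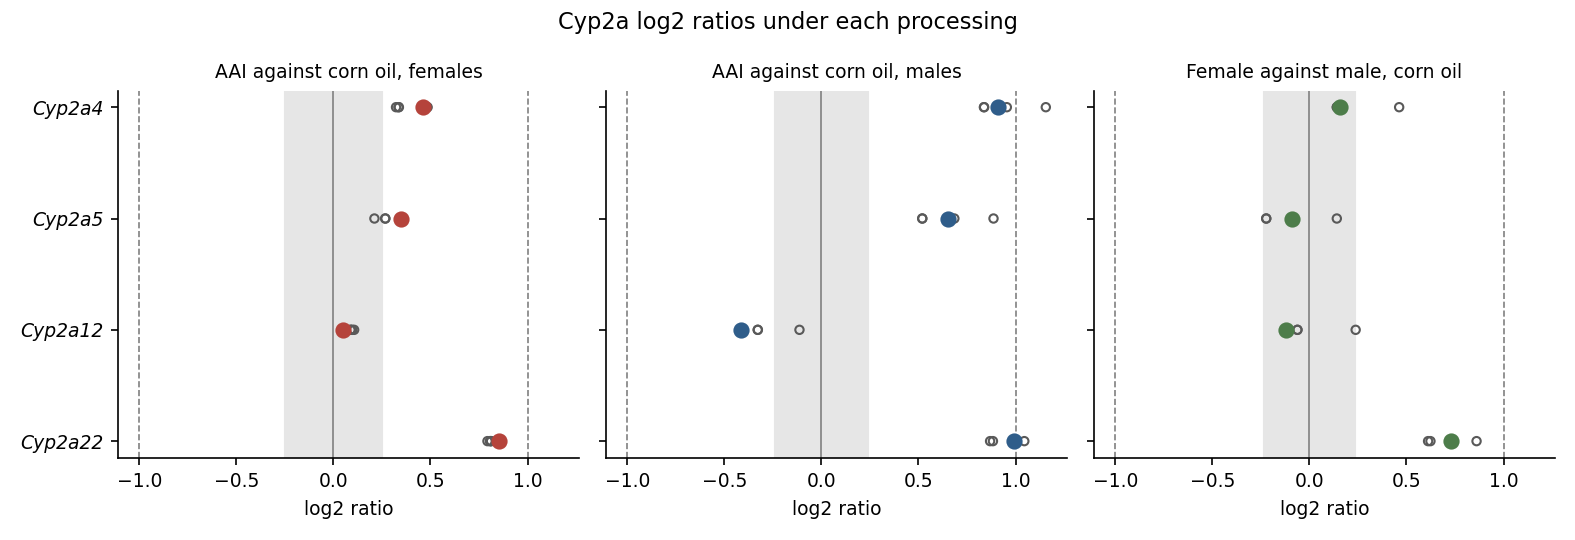
Log2 ratios (x axis) of each Cyp2a gene for AAI over corn oil in females and in males and for females over males given corn oil, with the reported value as a large point and the other ways of processing as open circles. Grey bands mark the median SD between probes of 1 gene and dashed lines mark 2-fold. Cyp2a22, Cyp2a4 and Cyp2a5 lie to the right of 0 in both sexes, and the circles of Cyp2a5 and Cyp2a12 fall on both sides of 0 in the comparison of corn oil groups.

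Levels of the members without AAI were compared between the corn oil groups. These 2 pools also differed in markers of other tissues. The summed signals in females and males were 688 and 3150 for skeletal muscle, and 843 and 3049 for adrenal cortex. The log2 ratio of females to males was -3.22 for the clock-driven gene Dbp. With 1 pool per sex, sex cannot be told apart from such other differences between the pools. Cyp2a22 was higher in females than in males, with 12.94 against 12.21 and a log2 ratio of 0.73 (1.66-fold), and 3.74% of 29111 genes had a ratio at least as high. It was the only member beyond the SD between probes, which 28.6% of all genes exceeded upward and 25.8% downward, and none reached 2-fold, which 1.86% of genes did upward and 3.83% downward. The ratio of females to males was 0.16 for Cyp2a4, and 0.46 under 75th percentile scaling, on a probe also listed for Cyp2a5. The ratios of Cyp2a5 and Cyp2a12 were -0.09 and -0.12, and had the opposite sign, 0.14 and 0.24, under that scaling.

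The ratio in males minus that in females was 0.45 for Cyp2a4, 0.31 for Cyp2a5, 0.14 for Cyp2a22 and -0.46 for Cyp2a12, with a scanner error of 0.29 for such a difference. Under 75th percentile scaling these differences were 0.67, 0.53, 0.23 and -0.21, so that of Cyp2a12 was then within the scanner error, and with normexp background correction that of Cyp2a5 was within it too, at 0.25. Dose and sex are joined in these differences. By the whole profile, Cyp2a4 and Cyp2a5 were the most alike of the members, with a root mean square difference of 0.13 between their log2 signals centred over the 4 arrays, against 0.39 to 0.63 for the other 5 pairs. The Cyp2a4 probe may read both transcripts, as given above. Cyp2a12 and Cyp2a22, with the other pair of similar upstream sequences, were the least alike, at 0.63.

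Only Cyp2a22 varied by 1 or more on the log2 scale over the 4 arrays, and the genes most like it were sought among 28188 genes above background on all arrays. The closest profiles, with root mean square differences of 0.02 and 0.05, belonged to transcripts named only by the Ensembl accessions ENSMUST00000199673 and ENSMUST00000191444. Abcb1a, a drug efflux pump, came next with 0.05, followed by the peroxisomal transporter Abcd4 with 0.06 and the acyl-CoA dehydrogenase Acad12 with 0.06. In all, 16 genes were within 0.1, over 4 arrays only.

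The Cyp2a genes were next set beside the other P450s. In females, Cyp2a22 was 7th, Cyp2a4 11th, Cyp2a5 20th and Cyp2a12 44th of 91 P450 genes ranked from the highest ratio. In males, Cyp2a22 was 10th, Cyp2a4 11th, Cyp2a5 16th and Cyp2a12 60th of 90. Genes ranked above them in males included the adrenal cortex markers Cyp21a1 (3.78), Cyp11b1 (3.69) and Cyp11a1 (3.47). The median over all P450s was 0.03 in females and -0.12 in males. In both sexes and by more than the SD between probes, 15 of 89 P450 genes were higher, while over all genes this share was 11.3% of 28234. Among the 15 were Cyp2a4, Cyp2a5 and Cyp2a22, and also the adrenal cortex marker Cyp11a1. Genes were taken as P450s by name, so the 91, 90 and 89 include Cyp4x1os, which is named as an opposite-strand transcript of Cyp4x1. Of the other subfamilies with 3 or more genes measured, Cyp4a had medians of 0.82 in females and 0.27 in males, and Cyp2b -0.43 and 4.35. Cyp2c had medians of 0.24 in females and -0.07 in males (0.14 under 75th percentile scaling), Cyp2d 0.03 and -0.67, and Cyp3a -0.19 and -0.62. Cyp2j had -0.01 and -0.74, and Cyp4f 0.08 and -0.13, beside 0.40 and 0.78 for Cyp2a.

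**Figure D3:**
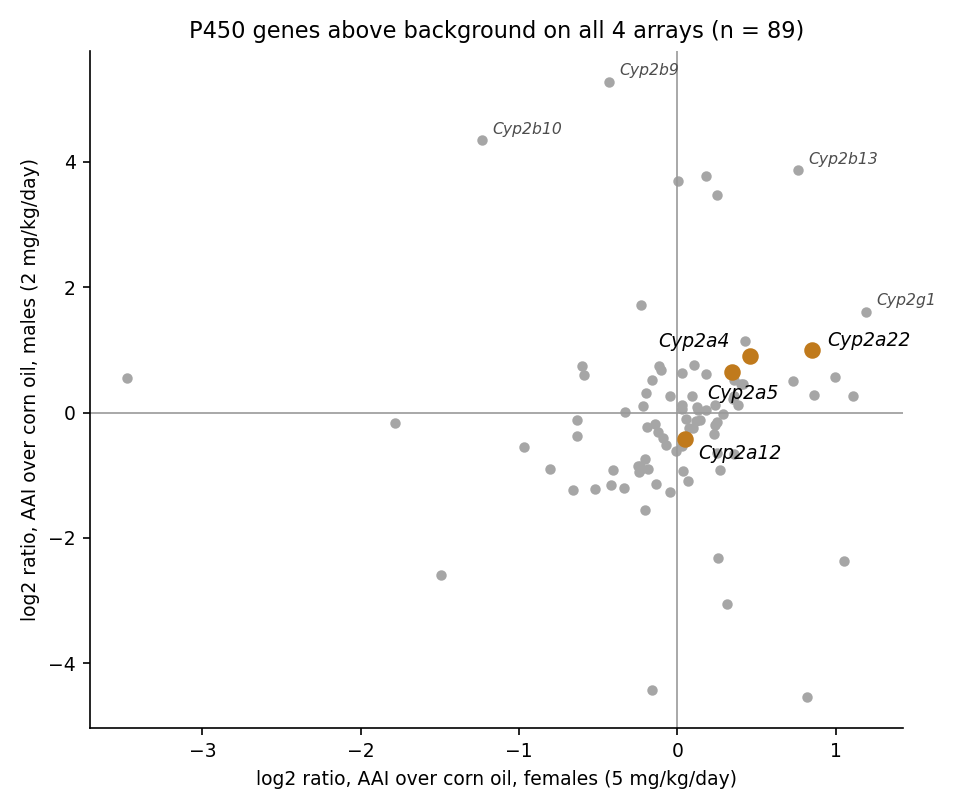
Log2 ratio of AAI over corn oil in females (x axis, 5 mg/kg/day) and in males (y axis, 2 mg/kg/day) of the 89 genes with P450 names, Cyp4x1os included, above background on all 4 arrays, with the Cyp2a genes in orange. Cyp2a4, Cyp2a5 and Cyp2a22 lie in the upper right part, at ratios below those of Cyp2g1, and Cyp2a12 lies at 0.05 and -0.41.

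On chromosome 7 the Cyp2a genes are interleaved with other P450 genes of the Cyp2 family, and the ratios of these neighbours differed widely. Cyp2g1, an olfactory P450 that lies next to Cyp2a5, had log2 signals in females of 8.94 with corn oil and 10.13 with AAI, and in males of 7.90 and 9.51. It was higher with AAI in both sexes, with ratios of 1.19 and 1.61, and higher in females than in males given corn oil, by 1.03. Cyp2b9, Cyp2b10 and Cyp2b13, which lie on the side of Cyp2a4, are P450s of drug and steroid metabolism. Their ratios in males were 5.28, 4.35 and 3.87, whereas in females they were -0.43, -1.23 and 0.76, and with corn oil they were higher in females than in males by 6.70, 6.22 and 7.24. No Cyp2a gene had a difference of this size.

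On the other side of the cluster, Cyp2f2, a P450 known for bioactivation of naphthalene, had ratios of -0.24 in females and -0.95 in males. It lies next to Cyp2a12, whose ratios were 0.05 and -0.41. Cyp2t4, beyond Cyp2f2, had -0.22 and 0.11. Cyp2s1, at the opposite end of the cluster beyond Cyp2b10, had -0.60 and 0.75. Cyp2b23 and Cyp2b19 lie between Cyp2a4 and Cyp2g1. The brightest Cyp2b19 probe was above background only in AAI-treated females and corn oil-treated males, while a further probe was above background in both female groups with a ratio of -0.08. Cyp2b23 was above background on none of the arrays.

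**Figure D4:**
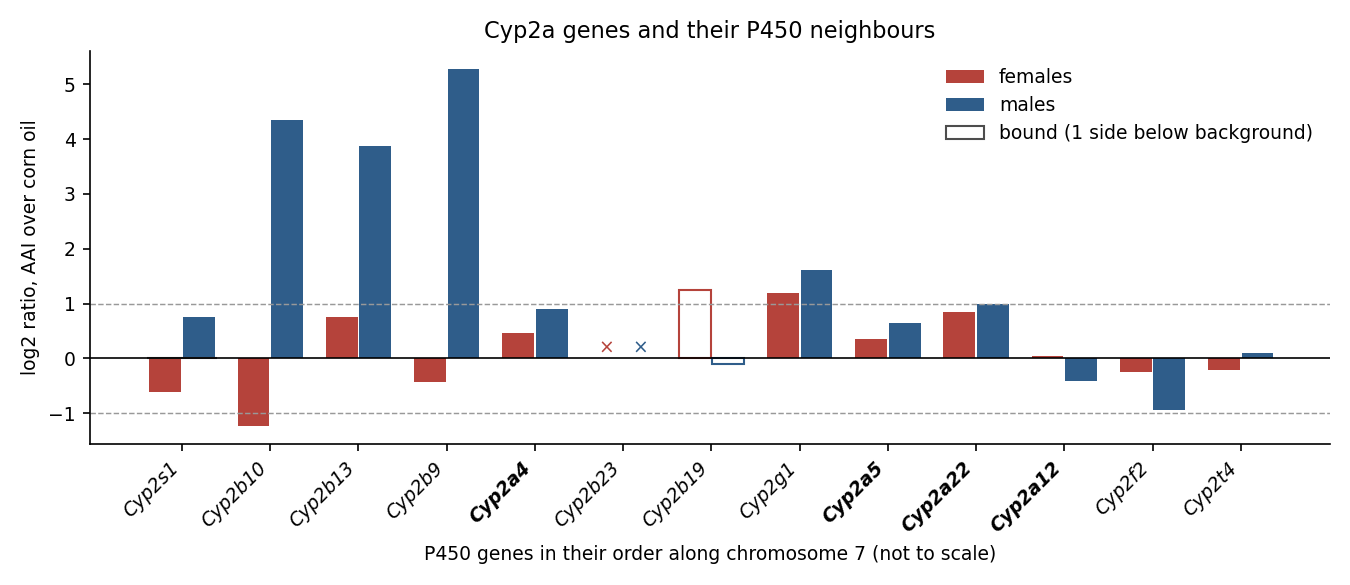
Log2 ratio of AAI over corn oil (y axis) of 13 P450 genes in their order along chromosome 7, with females in red, males in blue, Cyp2a names in bold, open bars for bounds where 1 side was below background, crosses where both were, and dashed lines at 2-fold. The Cyp2a bars are short beside those of Cyp2b9, Cyp2b10 and Cyp2b13 in males, and Cyp2g1 is the neighbour with ratios past 2-fold upward in both sexes.

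Genes that encode regulators of Cyp2a transcription or of the growth hormone pathway behind sex-biased liver genes were listed, and all 27 were above background on all arrays. In females 1 was 2-fold or more higher and 2 lower, beside 1.37% and 3.09% of all genes, with a median of -0.22. In males 2 were higher and 1 lower, beside 3.51% and 4.59%, with a median of -0.02 (0.01 under 75th percentile scaling). Counts this small do not set the list apart from all genes. Dbp, a clock-driven activator of Cyp2a genes, had log2 signals in females of 10.07 with corn oil and 11.09 with AAI, and in males of 13.29 and 14.02. It was higher with AAI in both sexes, by 1.02 and 0.73, while a further Dbp probe gave 0.47 and 0.75. In mice given corn oil, the log2 ratio of females to males was -3.22 for Dbp.

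Of the xenobiotic receptors, CAR (Nr1i3) had ratios of 0.25 in females and 0.38 in males, PXR (Nr1i2) -1.22 and -0.28, and AhR (Ahr) 0.25 and -0.66. Further probes gave -0.05 and 0.41 for Nr1i3 and 0.12 and 0.10 for Ahr, so the latter differed in sign between its probes in males. Nrf2 (Nfe2l2), the sensor of oxidative stress, had -0.61 and -0.21, the latter 0.34 as the mean over its probes, and its inhibitor Keap1 had 0.11 and 0.39. Hnrnpa1, whose protein binds and stabilizes Cyp2a5 mRNA, had 0.16 and 0.46. None of these genes but Nr1i2 in females was past 2-fold.

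The repressor Nfil3, which competes with DBP for its sites, had ratios of -0.77 in females and -1.23 in males. Cux2, a female-biased factor of the liver, had -0.39 and 3.25. Ppargc1a, a coactivator of the fasting response, had -0.90 and 1.29. Onecut1 (HNF6) had -1.31 and -0.97, while a further Onecut1 probe gave -0.49 and -0.62. Hnf4a, which sustains hepatic P450 transcription, had -0.42 and -0.38. A further Hnf4a probe gave -0.96 and -0.27. The growth hormone receptor Ghr had -0.57 and -0.70, but its 3 other probes gave -0.33, -0.33 and 0.78 in females, and the mean over its probes was -0.12 there. Bcl6, a male-biased repressor of the same pathway, had -0.98 and -0.76.

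**Figure D5:**
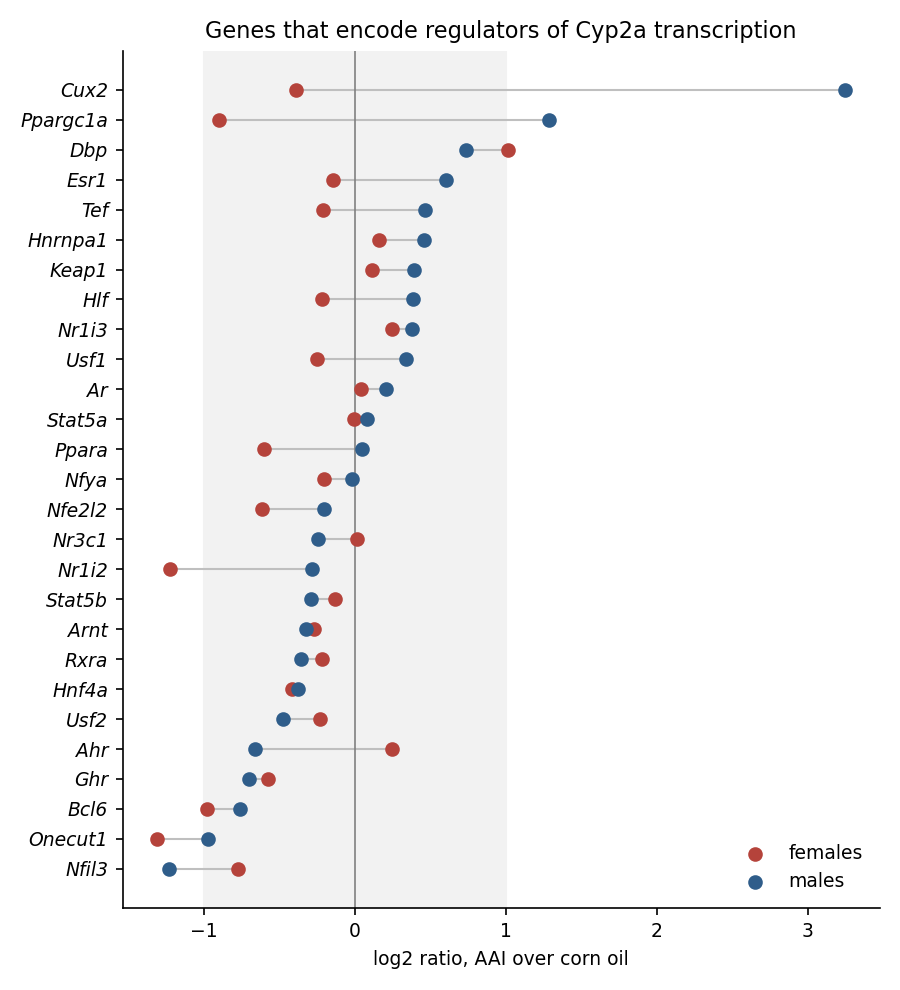
Log2 ratio of AAI over corn oil (x axis) of the 27 genes for regulators of Cyp2a transcription in females (red) and males (blue), ordered by the male value, with the range under 2-fold shaded. Dbp lies to the right of 0 in both sexes, Nr1i2 and Onecut1 lie beyond the shading in females, and Cux2, Ppargc1a and Nfil3 do in males.

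Genes that serve P450 enzymes were also listed, and of the 13 genes for electron transfer and haem supply none reached 2-fold in either sex, with medians of 0.05 in females and -0.28 in males. Por, the reductase that passes electrons to P450s, had ratios of 0.31 and 0.50. Alas1, the rate-limiting enzyme of haem synthesis, had -0.90 and -0.87, and its other probes gave -0.49 and -0.50 in females and -0.28 and -0.47 in males. Uros, an enzyme of the same pathway, had -0.49 and -0.37, and its probe of opposite sign in males gave -0.13 and 0.11. Of 7 genes measured for haem and bilirubin breakdown, none reached 2-fold. Blvrb, a biliverdin reductase, had 0.78 and -0.09 (0.04 under 75th percentile scaling), the bilirubin exporter Abcc2 had 0.45 and -0.37, and the hepatic uptake carrier Slco1b2 had -0.31 and -0.91.

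The members can be read against the sex-biased genes of the liver. Of 21 female-biased genes, 18 were 2-fold or more higher in females than in males given corn oil, with a median of 1.75, while Cyp2a22 had 0.73 and Cyp2a4 0.16. The Cyp2a4 probe is also listed for Cyp2a5, which had -0.09, so 0.16 cannot be taken as the ratio of Cyp2a4 alone. With AAI, 11 of 19 female-biased genes measured were 2-fold or more higher and 1 lower in males. In females, 0 of 21 were 2-fold higher and 2 were lower. Of 21 male-biased genes, 14 were 2-fold or more lower with AAI in males, such as the steroid enzyme gene Hsd3b5, which was not well above background in AAI-treated males and had a bound of -9.89, the organic anion carrier Slco1a1 with -5.78 and the fatty acid elongase Elovl3 with -5.71, and 4 were lower and 1 higher in females. The 16 pericentral hepatocyte genes, which mark the zone where Cyp2a5 is known to be expressed, held none past 2-fold, with medians of -0.22 in females and -0.11 in males. Of 15 periportal genes, 2 were 2-fold or more lower in males and no other reached 2-fold with AAI, with medians of -0.11 and -0.05, the latter from -0.07 to 0.06 over the ways of processing.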

How the data were processed

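The authors quantified the arrays with Feature Extraction 10.5.1.1 and deposited, per array, linear spot intensity before and after background subtraction, a processed intensity and quality marks. The trend surface deposited by the authors is a linear ratio by which the software divides spots, and was used for an alternative. Their quantile-normalized intensity was also deposited and served as an alternative. Probe coordinates and gene names are those of the array files (mm9). Log2 of the processed intensity, as deposited, was taken here after removal of control and outlier-marked spots, and the 4 arrays were quantile normalized over 56495 probes (Python 3.11.15, numpy 2.4.6, pandas 2.3.3). The brightest probe represents a gene. A ratio is a difference of log2 values, counted from 1 (2-fold) where 1 or both arrays were well above background, with a bound where only 1 was. Functions were tested on simulated data. Groups followed the labels of sex and treatment. With 1 array per group, precision is limited by their number, and no test was made. The genes named are the members and their probes, neighbours, regulators, up to 3 genes with the largest ratios per list, and the 5 profiles nearest to a member that ranges over 1 or more. Members and gene lists were chosen with earlier results of these data known. Alternatives covered scaling, background and trend correction, the authors' normalization, filters, probe choice, threshold and replaced spots. Upstream sequences are RefSeq's (GRCm38.p6).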

Additional observations from a re-analysis of the deposited data

Results flagged for a closer look

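Several genes beside the Cyp2a genes on chromosome 7 or among their regulators had ratios of opposite sign in the sexes. These differences were not tested, each rests on 1 array per group, and the dose differed with sex. Cyp2b9 had a log2 ratio of AAI over corn oil of -0.43 in females and 5.28 in males. Cyp2b10 had -1.23 and 4.35, and its further probe had -1.52 and 2.77. Cyp2s1 had -0.60 and 0.75.

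Among the regulators, Cux2 had -0.39 in females and 3.25 in males, and its other probes had -0.64 and -0.71 in females and 2.11 and 2.17 in males. Ppargc1a had -0.90 and 1.29, and -1.23 and 1.75 on its further probe. Usf1 had -0.25 and 0.34, whereas its further probe had -0.56 and -0.08 and did not differ in sign.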

How the results depend on the processing

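Under the 6 alternatives that can change a Cyp2a ratio, 68 of 72 ratios moved by less than 1 SD between probes, and none of the AAI ratios changed direction, whereas 2 ratios between corn oil groups changed sign. The exceptions came under 75th percentile scaling. In males Cyp2a4 had 1.16 and Cyp2a12 -0.11, 2 members then passed 2-fold, and in corn oil-treated mice the female to male ratio was 0.46 for Cyp2a4 and 0.24 for Cyp2a12, and 0.14 for Cyp2a5, the latter genes with the opposite sign. That scaling shifted the median of all genes by 0.05 in females, 0.05 in males and 0.07 between corn oil groups, and moved the split of genes past 2-fold in females from 434 higher and 978 lower to 623 and 745. The cause was not tested. The trend correction on all arrays was added after the data were seen.

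Counts of all genes past the threshold changed by over 1.5 times under a few settings. With a 3-fold threshold, 127 were higher and 225 lower in females (434 and 978 at 2-fold), 471 and 509 in males (1071 and 1401) and 155 and 378 between corn oil groups (574 and 1184), as a stricter threshold must give fewer. With normexp background correction, counts were 139 and 343, 554 and 643, and 225 and 473. Without a filter on dim probes, 1078 were higher in females, 1793 higher and 2240 lower in males, and 1253 and 1823 between corn oil groups. With the mean over probes, 719 were higher in females. Of 408 medians of gene lists, 30 moved by more than 1 SD and 11 changed sign, 6 of them under 75th percentile scaling. No paired analysis was possible because each group is 1 array. Probes below background limit the other genes, not the members.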
